A study of Rattus norvegicus with 28 samples.

Results

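Transthyretin is a protein that carries thyroid hormone in blood and cerebrospinal fluid and, bound to the retinol-binding protein, also carries retinol. In the mammalian brain its gene, Ttr, is transcribed chiefly in the epithelium of the choroid plexus, the secretory tissue that hangs in the ventricles and makes cerebrospinal fluid, so that Ttr serves as a marker of that tissue. The choroid plexus epithelium releases the protein into the cerebrospinal fluid, where it helps to distribute thyroid hormone. The values below are those of 1 row, ENSRNOG00000016275 (Ttr), of 32623 gene rows, in all 28 libraries. The row was chosen by its identifier and not by its values.

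RNA of whole rat brains was sequenced in 2 inbred strains, SHR/OlaIpcv, a spontaneously hypertensive strain, and BN-Lx/Cub, a strain on a Brown Norway background. The groups were males of SHR and of BN-Lx (n = 2 each) and SHR and BN-Lx females at pre-estrus, estrus and post-estrus (n = 4 for each strain and stage). No treatment and no age are given in the labels, and the protocol text speaks of male rats although 24 of the samples are labelled female. The design asks whether the stage of the estrous cycle, or sex, acts on brain RNA differently in the 2 genetic backgrounds.

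The series does not pair identifiers with gene names, and 0 of the identifiers matched the reference table used here. The name Ttr for this identifier was taken as given and not looked up in an annotation. Other choroid plexus markers could not be looked up, so whether they move with Ttr was not checked, and its marker role stands as background. Rows other than Ttr are given by identifier and have no named function here. No sequence of the transcript or the protein was used here.

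Ttr was an abundant RNA in every brain library. The row holds a single transcript of 701 bases. Its counts ran from 6171 to 68077, out of 42446654 to 87923653 gene counts per library. By TPM, which corrects for length, its place among all gene rows ranged from 58 to 307, and among rows longer than 200 bases from 19 to 209. The lowest share of gene counts was 107 ppm (95% Wilson interval 104 to 109, counting error only) and the highest 774 ppm (768 to 780.1). These intervals are narrow beside the differences between animals.

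Over all rows, 5 libraries stood apart from others of their strain by their median correlation. They were BN-Lx pre-estrus replicates 3 and 7a, BN-Lx estrus replicate 2, BN-Lx post-estrus replicate 5 and SHR post-estrus replicate 13. Their Ttr levels were 358, 332, 640, 407 and 666 CPM, and the 3 libraries with the least Ttr were not among them. The main comparisons are also given without these 5 libraries.

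No strain, stage or sex difference of Ttr passed the test in the fit of all libraries, while animals of the same group differed by up to 7.16-fold. Levels are given as CPM after scaling by the TMM method, which sets libraries to a common level over most genes. Across the 28 libraries Ttr averaged 454 ± 174 CPM (SD), with a lowest value of 113, a median of 466 and a highest value of 812, a 7.16-fold range. In bulk tissue, fewer choroid plexus cells and less Ttr RNA per cell cannot be told apart.

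In males, Ttr reached 132 and 438 CPM in the SHR brains and 492 and 547 CPM in the BN-Lx brains. Each SHR male lay under each BN-Lx male, and the 2 SHR values were 3.32-fold apart. With 2 animals on each side this says little, as 58.1% of all rows did not overlap between the males of the 2 strains.

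At pre-estrus, the 4 SHR females had 154, 414, 583 and 613 CPM. The 4 BN-Lx females of that stage had 332, 344, 358 and 486 CPM and lay within the range of the SHR values. Strain groups without overlap at this stage were found for 7.22% of all rows.

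At estrus, the SHR females had 274, 447, 551 and 562 CPM, and the BN-Lx females had 571, 619, 640 and 669 CPM. All 4 BN-Lx estrus values lay above the 4 SHR estrus values, and they also lay above the 4 BN-Lx pre-estrus values. Groups without overlap were found for 6.85% and 2.01% of all rows, in that order. By TPM both pairs overlapped, as BN-Lx estrus began at 406, while SHR estrus reached 661 and BN-Lx pre-estrus 541. By share of gene counts, BN-Lx estrus and SHR estrus overlapped as well. BN-Lx estrus had the smallest spread of the female groups in CPM, 625 ± 41.2, a range of 1.17-fold. By TPM its spread was larger, 557 ± 150, against 380 ± 108 in BN-Lx pre-estrus (SD).

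At post-estrus, the SHR females had 298, 371, 533 and 666 CPM. The BN-Lx females of that stage had 113, 273, 407 and 812 CPM, which include both the lowest and the highest library of the study, and the strains overlapped, where 7.39% of rows did not.

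**Figure D1:**
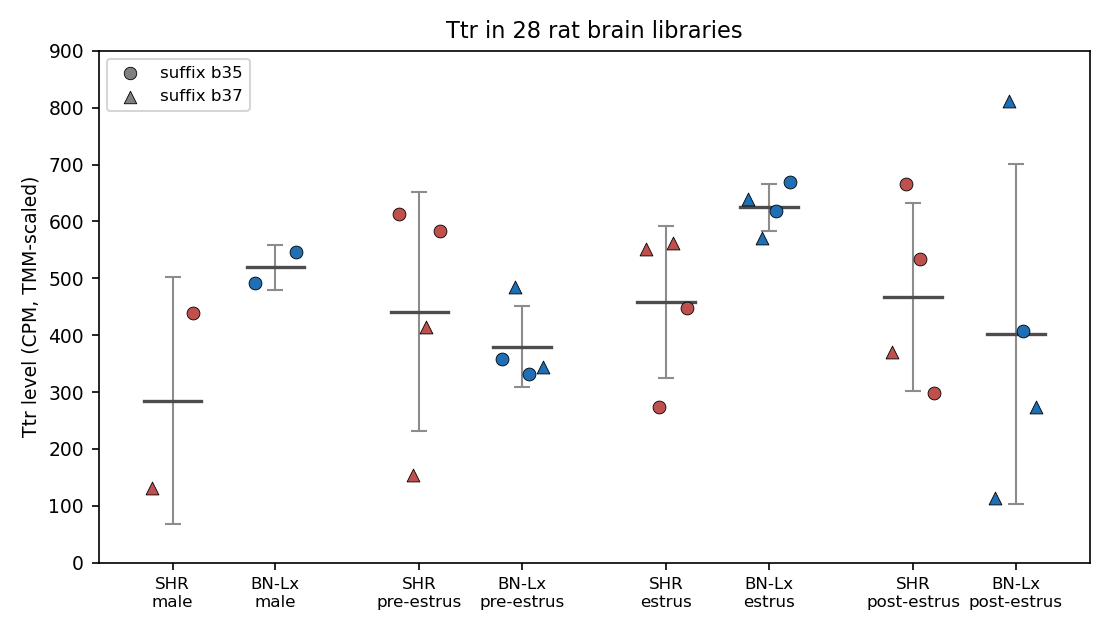
Ttr in each library (CPM, TMM-scaled) by sex or stage and strain. Each point is 1 animal, circles carry the suffix b35 and triangles b37 in the sample description, horizontal lines are group means and bars are SD. The BN-Lx estrus values sit between 571 and 669 CPM, while BN-Lx post-estrus runs from 113 to 812 CPM.

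Ordered by mean, the groups were BN-Lx estrus (625 ± 41.2), BN-Lx males (519 ± 39.0), SHR post-estrus (467 ± 165), SHR estrus (459 ± 134), SHR pre-estrus (441 ± 210.4), BN-Lx post-estrus (401 ± 299), BN-Lx pre-estrus (380.0 ± 71.1) and SHR males (285 ± 217 CPM, SD). Neighbours in this order had overlapping values, apart from BN-Lx estrus and BN-Lx males. Of the 28 pairs of groups, 6 had no overlap in CPM, and each of the 6 held BN-Lx estrus or a group of 2 males. Among all rows, 58.1% did not overlap between the males, 6.85% between the strains at estrus and 2.01% between BN-Lx estrus and pre-estrus. That share was not taken for the pairs of 2 males against 4 females, so the count of 6 has no background.

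The strain comparison asked whether Ttr differed between SHR and BN-Lx brains. It was tested with edgeR's quasi-likelihood test over 18134 gene rows in a fit of all 28 libraries, with the suffix as a term and Benjamini-Hochberg adjustment. In females, with the stages weighted equally, SHR brains averaged 456 ± 157 CPM of Ttr and BN-Lx brains 469 ± 199 CPM (SD, n = 12 each). The log2 fold change was -0.06 ± 0.27 (SE, edgeR adjusted p = 0.951), with a 95% interval from 0.656-fold to 1.41-fold. By comparison, 9.51% of the rows were called between the strains in females at an adjusted p under 0.05. A permutation test of the mean log2 CPM gave a difference of 0.01 (two-sided p = 0.967, adjusted over 10 comparisons 1). Leaving out BN-Lx post-estrus replicate 3 gave an edgeR value of -0.15 and leaving out replicate 4 gave 0.15. The value was -0.26 without the 5 libraries that stood apart (edgeR adjusted p = 0.672).

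Another scaling moved the female strain difference of Ttr about as far as the median of all rows. The mean log2 CPM of Ttr in SHR less that in BN-Lx was 0.01 with TMM, 0.14 with total gene counts and -0.28 with spike-in totals. The median over all rows was 0.03, 0.15 and -0.25 under the same scalings, so Ttr lay about 0.02 or less from the median in each. A scaling shifts the log2 CPM of all rows of a library by nearly the same amount. Ttr and the median thus had to move together, and the scalings are not separate checks. Among libraries with the suffix b35 the difference was 0.02 (7 SHR and 5 BN-Lx animals), and among b37 libraries it was -0.08 (5 and 7 animals).

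The strain estimates were lower in a fit that also held the share of the 8 most abundant rows and the share of spike-ins as covariates. The log2 fold change of SHR over BN-Lx in that fit was -0.69 in females (edgeR adjusted p = 0.147), against -0.06 without these covariates. It was -0.44 at pre-estrus, -0.76 at estrus, -0.85 at post-estrus and -1.10 in males (edgeR adjusted p = 0.626, 0.284, 0.285 and 0.294). None passed, but the size of the strain difference thus depended on whether these shares were in the fit. The share of the 8 most abundant rows ran from 34.8% to 45.9% in SHR and from 43.0% to 50.7% in BN-Lx libraries. Strain and this share could thus not be fully told apart. No median over all rows was taken for this fit, so whether the shift is particular to Ttr was not tested.

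By stage, the log2 fold change of SHR over BN-Lx was 0.16 ± 0.45 at pre-estrus (edgeR adjusted p = 0.929), -0.42 ± 0.45 at estrus (0.892) and 0.09 ± 0.47 at post-estrus (0.961, SE). The 95% intervals reached from 0.583-fold to 2.15-fold, from 0.391-fold to 1.43-fold and from 0.538-fold to 2.10-fold. The share of rows called was 2.5%, 2.24% and 2.5% at the 3 stages. In CPM the groups did not overlap at estrus, which held for 6.85% of all rows, while their TPM values overlapped. The exact two-sided permutation test there gave p = 0.0286, the smallest that 4 against 4 animals allow, and 0.143 after adjustment over the 10 comparisons. At pre-estrus the difference on the log2 scale was 0.79 in the b35 set and -0.69 in the b37 set, with 2 animals on each side. Without the 5 libraries that stood apart, the edgeR value was -0.19 at pre-estrus, -0.304 at estrus and -0.28 at post-estrus (adjusted p = 0.971, 0.765 and 0.928). At estrus the difference was -0.88 among b35 and -0.12 among b37 libraries, again with 2 on each side. At post-estrus the plain difference of mean log2 CPM was 0.48 (exact permutation p = 0.543, adjusted 1). The edgeR value there was -0.19 when BN-Lx post-estrus replicate 3 was left out and 0.71 when replicate 4 was.

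In males, the log2 fold change of SHR over BN-Lx was -0.81 ± 0.64 (SE, edgeR adjusted p = 0.643, n = 2 each), with an interval from 0.227-fold to 1.44-fold, where 0.8% of rows were called. Leaving out SHR male replicate 1 gave -0.24, and leaving out replicate 2 gave -1.87. Each of these fits has a single SHR male, whose spread is taken from the other groups. Both BN-Lx males carry the suffix b35, so b37 libraries gave no value.

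**Figure D2:**
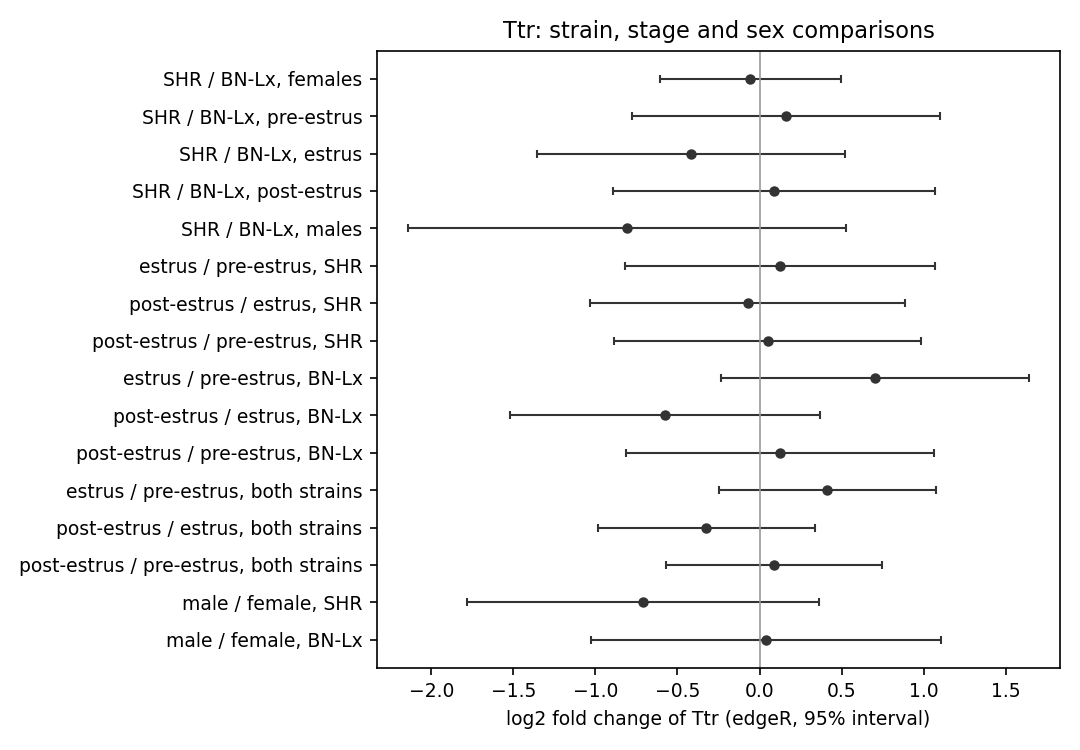
Log2 fold change of Ttr in each strain, stage and sex comparison, with 95% intervals from the edgeR fit of all 28 libraries. Each of the 16 intervals includes 0, and the estimate farthest above 0 is estrus over pre-estrus in BN-Lx at 0.70.

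The stage comparisons asked whether Ttr changes over the cycle in each strain. In SHR, the log2 fold change was 0.12 ± 0.46 for estrus over pre-estrus, -0.07 ± 0.46 for post-estrus over estrus and 0.05 ± 0.45 for post-estrus over pre-estrus (SE, edgeR adjusted p = 1 for each, n = 4 per stage). The interval for estrus over pre-estrus ran from 0.566-fold to 2.10-fold. The estimate was -0.18 without SHR pre-estrus replicate 11. The difference of mean log2 CPM was -0.77 in the b35 set and 1.14 in the b37 set, with 2 animals at each stage. Without the 5 libraries that stood apart, the edgeR values were 0.19 for estrus over pre-estrus, -0.32 for post-estrus over estrus and -0.13 for post-estrus over pre-estrus (adjusted p = 1 for each). The SHR stages overlapped in each pair. Groups without overlap were found for 1.11% of rows in estrus over pre-estrus, 1.94% in post-estrus over estrus and 0.772% in post-estrus over pre-estrus.

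In BN-Lx, the 4 estrus values of Ttr lay above the 4 pre-estrus values in CPM but not in TPM. The test over all rows was not passed. The log2 fold change was 0.70 ± 0.45 (SE, edgeR adjusted p = 0.858), a 1.63-fold difference with an interval from 0.850-fold to 3.12-fold. Without the 5 libraries that stood apart, 2 of them at pre-estrus and 1 at estrus, it was 0.31 (edgeR adjusted p = 0.989). Groups without overlap were found for 2.01% of all rows in this comparison. The exact permutation test gave p = 0.0286, the smallest possible, and 0.143 after adjustment. The difference of means was 0.90 among b35 and 0.56 among b37 libraries, with 2 animals at each stage.

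The other BN-Lx stage comparisons rested on the widely spread post-estrus group. Post-estrus over estrus had a log2 fold change of -0.58 ± 0.46 (SE, edgeR adjusted p = 1), which was -1.24 when BN-Lx post-estrus replicate 4 was left out and -0.28 when replicate 3 was. Post-estrus over pre-estrus had 0.13 ± 0.45 (SE, edgeR adjusted p = 0.991), and the plain difference of mean log2 CPM had the other sign, -0.24. Leaving out BN-Lx post-estrus replicate 4 gave -0.54 and leaving out replicate 3 gave 0.42. Without the 5 libraries that stood apart, post-estrus over estrus was -0.34 and post-estrus over pre-estrus -0.0323 (edgeR adjusted p = 1 for each). Groups without overlap were found for 0.574% of rows in post-estrus over estrus and 1.53% in post-estrus over pre-estrus, where Ttr overlapped in each.

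With the strains weighted equally, the log2 fold change was 0.41 ± 0.32 for estrus over pre-estrus, -0.33 ± 0.32 for post-estrus over estrus and 0.09 ± 0.32 for post-estrus over pre-estrus (SE, edgeR adjusted p = 1 for each). These were 0.25, -0.33 and -0.0791 in the same order without the 5 libraries that stood apart (edgeR adjusted p = 1 for each). In these 9 stage comparisons edgeR called 0% of the rows, with 96 to 912 rows at an unadjusted p under 0.05, 0 to 10 called by DESeq2 and 0 to 2 by limma.

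Whether the stages acted differently in the strains was tested as an interaction, which was not passed for Ttr (F = 0.466, edgeR adjusted p = 0.972). In that fit 0% of the rows were called for the interaction. Among b35 libraries alone it was passed (F = 6.99, edgeR adjusted p = 0.0424), in a fit with 1 BN-Lx post-estrus animal, whose spread is taken from the other groups. The share of all rows called among b35 libraries is not given here, so that result has no background. In the b35 subset Ttr at estrus against pre-estrus had a difference of mean log2 CPM of -0.77 in SHR and 0.90 in BN-Lx. Among b37 libraries alone, with 1 SHR post-estrus animal, the interaction had F = 0.0743. There the same difference was 1.14 in SHR and 0.56 in BN-Lx, so the opposite signs were not seen in b37 libraries. The sex comparison of males over females had a log2 fold change of -0.71 ± 0.52 in SHR (edgeR adjusted p = 1) and 0.04 ± 0.51 in BN-Lx (0.994, SE), where 0.0331% of rows were called in each strain. The difference between the sex effects was -0.75 ± 0.70 (SE, edgeR adjusted p = 0.786). The SHR sex effect depended on its 2 males, with -0.10 when replicate 1 was left out and -1.72 when replicate 2 was. Without the 5 libraries that stood apart, the sex effect was -0.66 in SHR and -0.15 in BN-Lx (edgeR adjusted p = 1 for each), and SHR over BN-Lx in males was -0.76 (0.622).

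The spread of Ttr within groups was large for a gene of its level. Its pooled standard deviation within groups was 0.71 on the log2 scale, or 1.63-fold, against a median of 0.20 among 330 rows within 1 log2 unit of its mean level. Of those rows, 92.7% had a lower spread. The biological coefficient of variation that edgeR estimated for Ttr was 0.434, against 0.204 on the trend at that level. The standard deviation was 0.75 in SHR and 0.67 in BN-Lx.

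**Figure D3:**
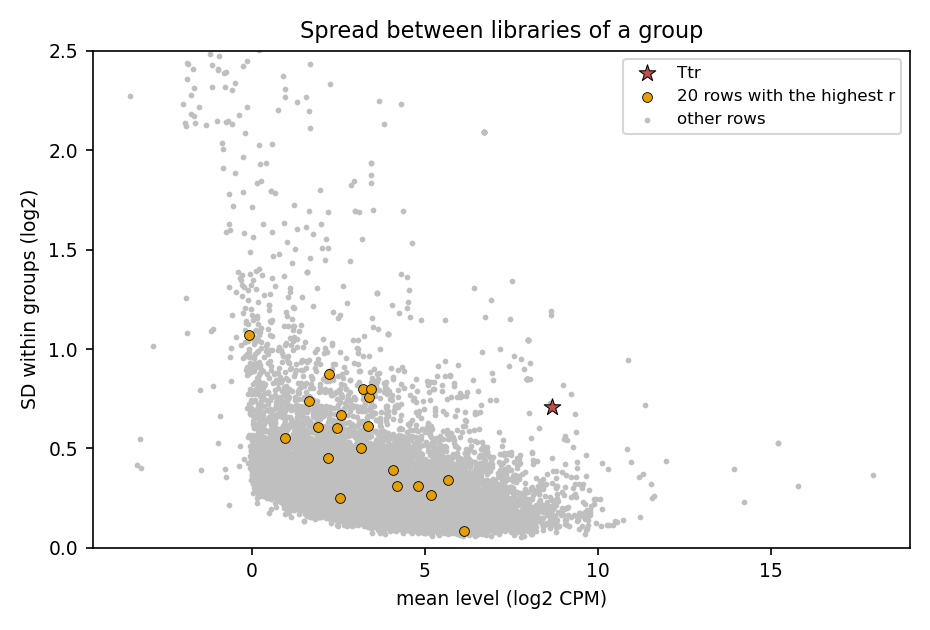
Standard deviation within groups (log2) against mean level (log2 CPM) of all rows averaging 1 CPM or more. Ttr (star) has an SD of 0.71, the 20 rows with the highest correlation with Ttr (orange) have 0.08 to 1.07, and 52 rows over the axis limit of 2.5 are not drawn.

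The deviation of Ttr from its group mean moved with properties of the libraries. Over the 28 libraries it had a Pearson r of 0.60 with the log of total gene counts (permutation p = 0.0243, adjusted over 4 measures 0.0324) and a Spearman rho of 0.62 (permutation p = 0.00229, adjusted 0.00458). With the share of spike-in RNAs the r was 0.54 (permutation p = 0.00051, adjusted 0.00204) and the rho 0.65 (0.00089, adjusted 0.00356). With the share of the 8 most abundant rows the r was -0.49 (permutation p = 0.00916, adjusted 0.0183) and the rho -0.51 (0.0153, adjusted 0.0204). The number of detected rows had an r of -0.16 (permutation p = 0.621, adjusted 0.621) and a rho of -0.13 (0.552, adjusted 0.552).

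Without the 2 libraries farthest from the median of each measure, these r were 0.55, 0.52, -0.43 and -0.03, in the same order. Among b35 libraries they were 0.63, 0.82, -0.69 and -0.22, and among b37 libraries 0.68, 0.40, -0.47 and 0.20. Libraries with more counts, a larger share of spike-ins and a smaller share of the most abundant RNAs thus had more Ttr than their group mean. With spike-in totals as library size, the r were 0.47, -0.19, -0.13 and 0.10 in the same order (permutation, adjusted p = 0.366, 0.529, 0.647 and 0.709), so none passed. Spike-in counts then enter both the Ttr level and the spike-in share, so the fall of that r follows in part from the scaling. Within the suffixes, only the spike-in share among b35 libraries passed (permutation, adjusted p = 0.02). Total gene counts and the 8 most abundant rows did not pass there (permutation, adjusted p = 0.105 for each), and none passed among b37 libraries, where each adjusted permutation p was at least 0.306. The part of these measures in the spread of Ttr was not tested. The suffix itself had a log2 fold change of -0.24 ± 0.27 for b37 over b35 (SE, edgeR adjusted p = 0.890), where 0.0551% of rows were called. The 3 libraries with the least Ttr all carry b37, and so does the library with the most, BN-Lx post-estrus replicate 4. Of the 28 libraries, 13 carry b37.

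The rows that followed Ttr were sought by correlating deviations from group means, so that differences between strains and stages played no part. Among 13994 other rows averaging 1 CPM or more, the Pearson r with Ttr over 28 libraries had a median of 0.03 and a central 95% range from -0.55 to 0.62. This broad range is a description of these libraries, in which many rows deviate together. An r over 0.8 was found for 26 rows and over 0.9 for 5 rows, and none was under -0.8. The first 20 rows had an r of 0.81 to 0.96 and a Spearman rho of 0.68 to 0.94. They were chosen by r, so no test is attached to these values. Of these 20 rows, 11 stayed among the first 20 when SHR pre-estrus replicate 11 was left out, 12 when BN-Lx post-estrus replicate 3 was, and 9 after total gene counts were also taken out. After that step the 20 rows still had an r of 0.72 to 0.95.

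The row closest to Ttr was ENSRNOG00000010378, with an r of 0.96 and a rho of 0.88. Its r was 0.94 without the 2 libraries in which Ttr deviated most, 0.92 among b35 and 0.98 among b37 libraries. It was a scarce RNA of 1.80 to 10.2 CPM, with 2 transcripts. The same libraries were used to choose this row, so its r in parts of them is no separate test.

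In SHR females it had 2.19, 5.45, 7.60 and 7.59 CPM at pre-estrus, in the same order of animals as 154, 414, 583 and 613 CPM of Ttr. In BN-Lx post-estrus females it had 1.80, 3.61, 4.40 and 8.26 CPM, in the order of 113, 273, 407 and 812 CPM of Ttr. The SHR males had 2.16 and 5.32 CPM beside 132 and 438 CPM of Ttr, and the BN-Lx males had 8.37 and 6.83 CPM beside 492 and 547 CPM of Ttr. Its low libraries were low in Ttr as well. The row was chosen by its r over these same libraries, so the shared order is a description and no test. The second row, ENSRNOG00000039107, had an r of 0.93, a rho of 0.89 and a level of 2.41 to 21.3 CPM, and its r was 0.90 without those 2 libraries.

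**Figure D4:**
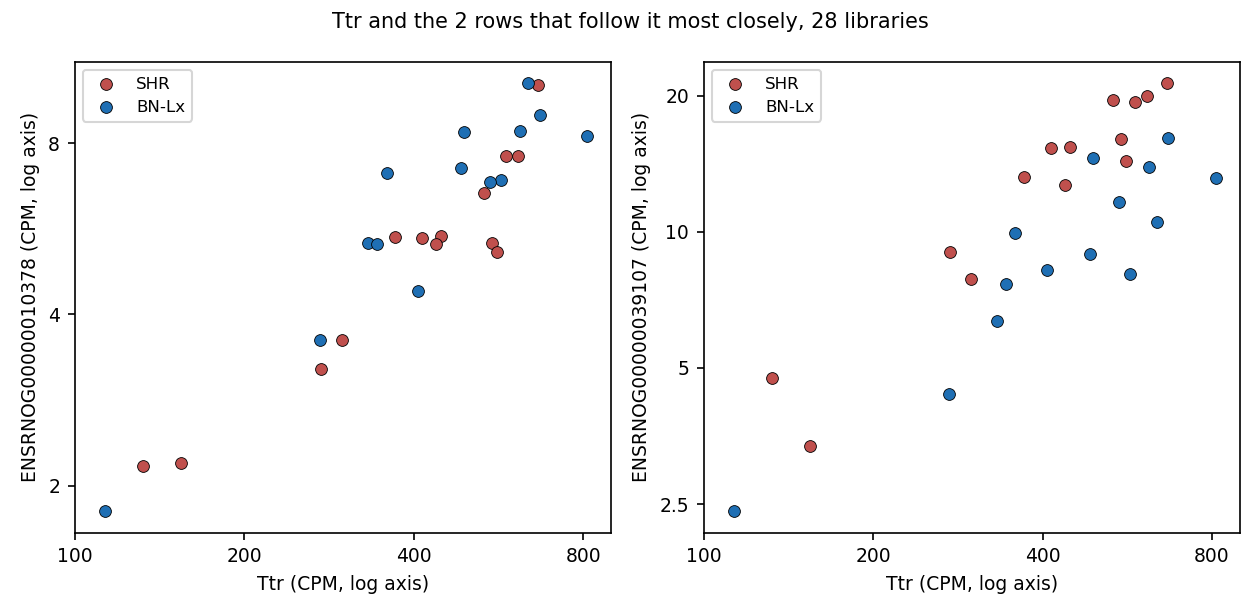
Level of ENSRNOG00000010378 (left) and ENSRNOG00000039107 (right) against Ttr in the 28 libraries, in CPM on log axes, with SHR in red and BN-Lx in blue. The libraries with 113, 132 and 154 CPM of Ttr have 1.80, 2.16 and 2.19 CPM of the left row.

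The 20 rows were less abundant than Ttr. Their mean TPM ran from 0.302 to 15.9, with a median of 1.80, against 429 for Ttr. The slope of their log2 deviation on that of Ttr ran from 0.10 to 1.26, with a median of 0.70. For 8 rows it was at least 0.8 and for 5 it was under 0.4. Of the 20, 12 had a spread within groups of at least 0.5 on the log2 scale, as had 12.1% of all rows of at least 1 CPM. A choice by high r favours rows whose spread exceeds counting error, so this contrast is no test of the 20 rows.

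The group differences of the 20 rows were not used to choose them. In SHR females over BN-Lx females, 1 of the 20 was called, a row lower in SHR, against 9.51% of all rows, and their median log2 fold change was 0.04 against 0.02 for all rows. In males the median was -0.46 against -0.02 for all rows, with 17 of 20 rows below 0, as were 51.9% of all rows. Ttr itself had -0.81 in that comparison. Those 20 rows move together within groups, so they do not count as separate evidence on the 2 SHR males. The smallest adjusted p of the 20 rows in any stage comparison was 0.858 (edgeR).

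At the other end, ENSRNOG00000013624 had an r of -0.75 and a rho of -0.74 with Ttr, and ENSRNOG00000023148 an r of -0.74 and a rho of -0.62. Their levels were 17.1 to 50.3 CPM and 7.83 to 18.9 CPM.

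To see whether the same rows follow Ttr in other animals, rows were chosen in the 14 libraries of one strain and their r was taken in the 14 libraries of the other. Of 20 rows chosen in BN-Lx (r of 0.84 to 0.95 there), 18 had a positive r in SHR, with a median of 0.78, against 0.09 for all rows. Of these, 13 passed a two-sided permutation test within groups with a positive r (adjusted over the 20 rows), 13 by Spearman rho as well, and 1 row passed with a negative r of -0.85. The smallest permutation p was 6e-05, adjusted 0.0012. The share of all rows passing this test was not taken, so the count of 13 has no background. The central range of r over all rows, taken as before, was broad in SHR, from -0.78 to 0.79. The median of 0.78 of the chosen rows thus lay close to the upper end of that range. Without the 2 SHR libraries in which Ttr deviated most, the median r of the chosen rows was 0.76. With rows chosen anew without BN-Lx post-estrus replicate 4, the library with the most Ttr, 3 passed. After total gene counts, with which Ttr had an r of 0.60, were also taken out, 5 of 20 rows passed.

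Of 20 rows chosen in SHR (r of 0.91 to 0.98 there), 19 had a positive r in BN-Lx, with a median of 0.73, against -0.04 for all rows. Here 7 passed the permutation test, with a smallest p of 0.00246 and adjusted 0.0309, while none passed by Spearman rho. The share of all rows passing was not taken here either. The central range of r over all rows in BN-Lx was narrower than in SHR, from -0.51 to 0.62. The median r of the chosen rows fell to 0.47 without the 2 BN-Lx libraries in which Ttr deviated most. The relation in BN-Lx thus rested in large part on those animals. After total gene counts were also taken out, 4 passed. The count was 0 without any 1 of BN-Lx estrus replicate 4, BN-Lx pre-estrus replicate 7b and the 4 BN-Lx post-estrus animals, 2 without BN-Lx estrus replicate 9, and 4 without any 1 of SHR pre-estrus replicate 10, SHR estrus replicates 6 and 9 and the 4 SHR post-estrus animals.

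The lists chosen in SHR and in BN-Lx shared 6 rows, 30% of each. These 6 rows had an r of 0.93 to 0.98 in SHR and 0.86 to 0.95 in BN-Lx and a mean level of 4.01 to 12.2 CPM, and all 6 were among the first 20 over the 28 libraries.

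**Figure D5:**
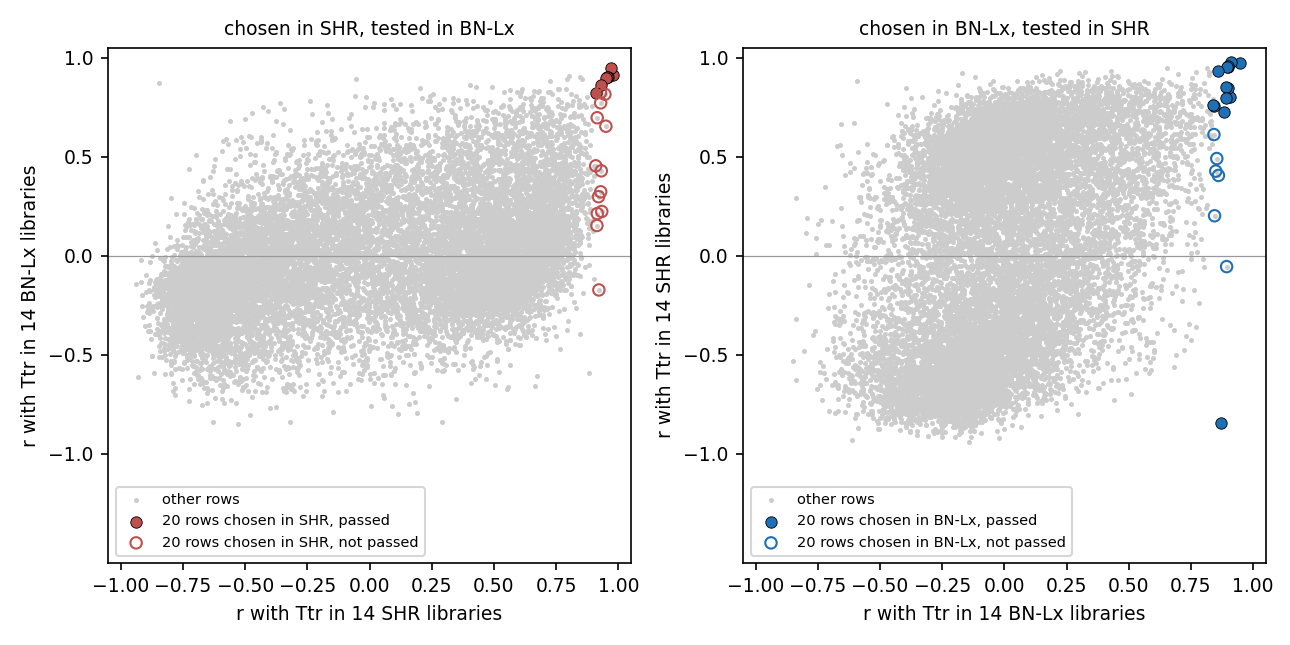
Pearson r with Ttr of deviations from group means in 14 libraries of the strain used to choose rows (x axis) and 14 of the other strain (y axis). Grey points are all rows of at least 1 CPM and coloured points the 20 chosen ones, filled where the permutation test passed. Rows chosen in BN-Lx reach a median r of 0.78 in SHR, and rows chosen in SHR a median of 0.73 in BN-Lx.

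The stage comparisons were repeated on Ttr relative to the rows that follow it, with the rows taken from the other strain so that the choice and the test used different animals. The spread within groups of Ttr relative to the mean log2 CPM of these 20 rows was 0.42 in SHR and 0.33 in BN-Lx, against 0.75 and 0.67 for Ttr alone. In BN-Lx, estrus over pre-estrus had a relative difference of 0.37 on the log2 scale, about 1.29-fold, and the groups did not overlap (exact permutation p = 0.0286, adjusted over 6 comparisons 0.171). The animals and their Ttr values were those of the comparison of Ttr alone, so this is not separate evidence. The share of all rows without overlap was not taken for the relative measure. In SHR the same difference was 0.10 (exact permutation p = 0.886, adjusted 0.943). None of the other 4 stage differences passed, and their exact permutation p ran from 0.171 to 0.943 before adjustment.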

How the data were processed

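Total RNA of whole brains was depleted of ribosomal RNA, and stranded libraries were sequenced from both ends, per the labels. The submitters' processing notes name cutadapt and RSEM. Versions, genome build and annotation were not given in the sources used here. Deposited values are expected counts per gene with no normalization, which are RSEM's estimates and need not be whole. Those of Ttr were whole in every library and equal in the table of all libraries and the per-library files. TPM is as the authors deposited it, a level corrected for transcript length. Lengths in bases are also the authors'.

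The titles call the samples biological replicates, and each was treated as 1 animal. P-values measure the spread between these libraries. Expected counts were rounded, library sizes exclude the 92 spike-in rows, and rows were kept by filterByExpr (count minimum 10). edgeR 4.0.16 fitted all 28 libraries with 8 groups and the suffix b35 or b37 of the sample description (15 and 13 libraries), whose meaning is not stated. The fit had 19 residual degrees of freedom. Standard errors come from the F statistic. DESeq2 1.42.0 and limma 3.58.1 were alternatives. Log2 CPM used a prior count of 2, and permutation tests used all splits or, for 12 against 12 and for correlations, 100000 resamples (within groups for correlations). Single-row permutation p-values were adjusted over 10 comparisons. Rows that follow Ttr were named by rule, the 2 highest and 2 lowest r by identifier, since no symbols were at hand. The 11 lists of cell type and pathway genes (104 entries) matched 0 rows and gave no result. The calculation was tested on simulated data. The row and the lists were chosen with earlier results of these data known.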

Additional observations from a re-analysis of the deposited data

Results flagged for a closer look

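In 30 groups of 4 females tested (Ttr and 4 other rows by identifier, 6 groups each), 3 had a library whose gap to the nearest of the others was too large a part of the group's range. Chance gives about 1 in 20 such groups for rows not chosen from these values. The 4 other rows were chosen by their r with Ttr over these libraries, so that rate does not hold for them. Ttr in BN-Lx pre-estrus replicate 5 was 485.5 CPM, while the other 3 animals of that group had 332 to 358 CPM. ENSRNOG00000010378 in SHR estrus replicate 5 was 3.20 CPM, against 5.15 to 5.50 CPM in the others, and Ttr was lowest of its group in that library as well. ENSRNOG00000013624 in SHR pre-estrus replicate 11 was 50.3 CPM, against 21.7 to 26.2 CPM in the others, in the library with the least Ttr of the SHR females. The gap of Ttr in BN-Lx pre-estrus was 0.832 of the range in CPM and 0.803 on the log2 scale, where the limit for 4 animals was not passed. The gap of ENSRNOG00000013624 was 0.842 in CPM and 0.775 on the log2 scale, where it did not pass either. For ENSRNOG00000010378 the gap was 0.849 and 0.880.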

How the results depend on the processing

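All values here are log2 differences in the order of the comparisons above, and only the strain by stage test among b35 libraries (F = 6.99, edgeR adjusted p = 0.0424) passed under an alternative; in the other fits no Ttr comparison passed in either direction. Signs turned as follows. With total counts and no TMM, strain in females was 0.0876. With limma, strain in females was 0.0356, SHR estrus over pre-estrus -0.0162, and post-estrus over pre-estrus -0.191 in SHR, -0.501 in BN-Lx and -0.346 in both. Among b35 libraries, strain in females was 0.0835, and in SHR estrus over pre-estrus was -0.73, post-estrus over estrus 0.47 and post-estrus over pre-estrus -0.26 (both strains -0.0121). Among b37 libraries, strain was -0.53 at pre-estrus and -0.16 at post-estrus, and BN-Lx post-estrus over pre-estrus -0.0314.

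With spike-in totals, strain was -0.0545 at pre-estrus and -0.34 at post-estrus, post-estrus over pre-estrus -0.16 in SHR and -0.019 in both, and sex in BN-Lx -0.16. With RNA shares as covariates, strain was -0.44 at pre-estrus and -0.85 at post-estrus, SHR post-estrus over pre-estrus -0.0739 and sex in BN-Lx -0.23. Strain kept its sign but moved to -0.69 in females, -0.76 at estrus and -1.10 in males. Without the 5 libraries that stood apart, an alternative chosen after seeing the data, strain was -0.19 at pre-estrus and -0.28 at post-estrus, post-estrus over pre-estrus -0.13 in SHR, -0.0323 in BN-Lx and -0.0791 in both, and sex in BN-Lx -0.15. SHR post-estrus over estrus was 0.02565 with no suffix term, 0.0603 with the description number as a block (sex in BN-Lx -0.43) and 0.0993 with the compared groups alone (post-estrus over pre-estrus -0.0275). The cause was not tested.

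Samples of different groups with the same replicate number were not more alike than others. The 18 pairs with the same number had correlations of -0.45 to 0.34 (median -0.12), against -0.61 to 0.63 (median 0.01) in 322 other pairs. Numbers were matched across strains and description numbers, so a pairing among some of the samples was not tested. With the replicate block, strain was -0.84 in females (edgeR adjusted p = 0.761), -1.83 at pre-estrus, 0.15 at estrus and -0.84 at post-estrus. Under the same block, SHR post-estrus over pre-estrus was -0.14, BN-Lx estrus over pre-estrus -1.19, post-estrus over estrus 0.0572 and post-estrus over pre-estrus -1.13. For both strains, estrus over pre-estrus was -0.20 and post-estrus over pre-estrus -0.63. Sex in BN-Lx was -1.14 and strain by sex 0.10. The block changed no call.

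For the plain differences of means, spike-in totals gave strain in females -0.28, pre-estrus -0.13, post-estrus -0.0663 and SHR post-estrus over estrus -0.2875. The last was -0.00978 on log2(TPM + 1) and -0.04995 relative to rows chosen in the other strain, which was added after seeing the data.

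Leaving out 1 library gave these ranges in the fits: strain in females -0.15 to 0.15, strain at post-estrus -0.19 to 0.71, SHR estrus over pre-estrus -0.18 to 0.37, SHR post-estrus over estrus -0.33 to 0.0905, SHR post-estrus over pre-estrus -0.21 to 0.22, BN-Lx post-estrus over pre-estrus -0.54 to 0.42, both strains -0.26 to 0.24, and sex in BN-Lx -0.0392 to 0.19. For plain differences of means they were -0.16 to 0.14 (strain in females), -0.17 to 0.49 (pre-estrus), -0.0116 to 0.93 (post-estrus), -0.26 to 0.41 (SHR estrus over pre-estrus), -0.22 to 0.20 (SHR post-estrus over estrus), -0.25 to 0.41 (SHR post-estrus over pre-estrus) and -0.69 to 0.26 (BN-Lx post-estrus over pre-estrus). The smallest adjusted p in these edgeR fits was 0.445.

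Rows kept of the first 20 ran from 11 to 20 without 1 library and were 9 after total gene counts were taken out (added after seeing the data). Of rows chosen in SHR, 1 passed with rows ranked by Spearman rho, 4 after total gene counts were taken out, and 0 to 8 without 1 library. Of rows chosen in BN-Lx, 5 passed after total gene counts were taken out and 3 to 17 without 1 library. With spike-in totals, the r with total gene counts was 0.47, with spike-in share -0.19, with the 8 most abundant rows -0.13 and with detected rows 0.10. Among b35 libraries total gene counts (0.63) and the 8 most abundant rows (-0.69) no longer passed, and among b37 libraries total gene counts (0.68), spike-in share (0.40) and the 8 most abundant rows (-0.47) did not, while detected rows had 0.20. The description number as a block could give no strain comparison, and b37 libraries hold no BN-Lx male. Depth was not limiting for Ttr, with at least 6171 counts per library, but rows of 1 to 10 CPM that follow it have larger counting error.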
